A study of Mus musculus with 8 samples.

Results

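The 43 genes described here encode the enzymes and carriers with which a mouse cell makes, recovers, moves and breaks down nucleotides, of 37620 genes in the deposited tables. They were chosen by their role in nucleotide metabolism, with earlier results of these data known, and fall into 2 classes. The first holds 28 genes of synthesis and dNTP supply: 2 for phosphoribosyl pyrophosphate (PRPP, the activated ribose on which nucleotides are built), 10 for de novo purine synthesis, 4 for de novo pyrimidine synthesis, 8 for dNTP supply and 4 for one-carbon units. The second holds 15 genes of salvage (3), breakdown (8) and nucleoside transport (4). They are called disposal genes below for short, although salvage recycles bases and nucleosides and the carriers only move nucleosides. All 43 matched a gene ID, and all 43 passed the filter on low counts.

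Gene expression was measured by RNA sequencing of flow-sorted cells from mouse small intestinal epithelium. Both groups had been depleted of cells that bind Ulex europaeus agglutinin I, a lectin for fucosylated glycans, and of cells that carry CD45, the pan-leukocyte antigen. The 4 CD24Mid libraries (replicates 1, 3, 5 and 7; the submitters also use the name CD24low) came from cells with intermediate surface CD24, and the 4 CD24Neg libraries (replicates 2, 4, 6 and 8) from cells without it, all described as biological replicates. No treatment, genotype, strain, sex, age or gut segment is given in the sources used here, and each group is a sort gate, so it can hold several cell types.

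In the gut, stem and dividing progenitor cells sit in crypts, and their daughters stop dividing as they move onto the villus, where absorptive enterocytes meet the nucleic acids of food and of shed cells. Dividing cells build purine and pyrimidine rings from PRPP, amino acids, bicarbonate and one-carbon units carried on folate, and reduce ribonucleotides to dNTPs for DNA replication. Salvage enzymes recycle ready-made bases and nucleosides, while phosphohydrolases, deaminases and phosphorylases take nucleotides apart, in the case of purines down to uric acid through xanthine dehydrogenase.

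Libraries held 15473071 to 17537818 reads unique to 1 gene in CD24Mid and 11340782 to 18928233 in CD24Neg. Cd24a, the gene of the sort marker, measured 155 to 255 CPM (unique counts brought to a common library size, with totals scaled by TMM factors that correct for composition) in CD24Mid and 19.2 to 38.5 CPM in CD24Neg. All 6 crypt base stem cell markers were higher in CD24Mid and all 10 enterocyte markers higher in CD24Neg. Markers of other cell types were found in both gates. Of 9 tested T and NK cell markers 9 were higher in CD24Neg, where they summed to 38.2 to 632 CPM against 9.72 to 26.4 CPM, and of 8 tested B and plasma cell markers 6 were higher in CD24Mid (401 to 1025 against 24.6 to 55.3 CPM). Of 7 goblet cell markers 5 were higher in CD24Neg (12226 to 34480 against 3415 to 5303 CPM), and 7 of 8 enteroendocrine markers were higher in CD24Mid (282 to 797 against 66.4 to 108 CPM). The 8 markers of stroma and vessels summed to 9.55 to 12.2 CPM in CD24Mid and 2.66 to 11.5 CPM in CD24Neg. Of the 2 tested, 1 was called higher in CD24Mid. Among the 8, Col1a2 and Des were at 0 in all CD24Mid libraries. At these depths that allows up to 0.121 to 0.145 CPM for each library. Mitochondrially encoded genes took 8.03% to 9.17% of reads in CD24Mid and 27.7% to 37.0% in CD24Neg.

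Stretches of DNA just before the start sites of 5 genes are shown as examples of the 2 sides of the contrast described below. Rrm1 and Rrm2, the subunits of ribonucleotide reductase, and Atic and Gart, enzymes of purine synthesis, were high in CD24Mid, and Enpp3 was the breakdown gene with the largest difference toward CD24Neg. Their stretches were chosen as lying outside every gene annotated by RefSeq. Each run is the 150 bases before the annotated start, 5′ to 3′ on the strand of the gene, from RefSeq on build GRCm38.p6. Capitals mark an exact match on either strand to CACGTG (the E-box bound by Myc and related factors), CCAAT (the CCAAT box), TTGGCGC or TTCCCGC (E2F-like) or CAAAGTC (HNF4-like).
Rrm1 (chr7:102441545-102441694, plus strand): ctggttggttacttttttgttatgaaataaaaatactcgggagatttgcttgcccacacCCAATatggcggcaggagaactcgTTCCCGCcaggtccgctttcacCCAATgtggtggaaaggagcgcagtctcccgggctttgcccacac
Rrm2 (chr12:24708104-24708253, plus strand): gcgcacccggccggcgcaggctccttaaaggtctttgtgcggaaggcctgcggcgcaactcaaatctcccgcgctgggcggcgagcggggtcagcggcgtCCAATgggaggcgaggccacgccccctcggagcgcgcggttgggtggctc
Atic (chr1:71557006-71557155, plus strand): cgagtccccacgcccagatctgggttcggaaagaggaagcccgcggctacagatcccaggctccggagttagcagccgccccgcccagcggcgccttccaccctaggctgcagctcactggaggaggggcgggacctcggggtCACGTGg
Gart (chr16:91646973-91647122, minus strand): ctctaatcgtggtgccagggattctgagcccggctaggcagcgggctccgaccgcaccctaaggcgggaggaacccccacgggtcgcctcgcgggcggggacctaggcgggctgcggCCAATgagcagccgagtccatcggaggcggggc
Enpp3 (chr10:24836196-24836345, minus strand): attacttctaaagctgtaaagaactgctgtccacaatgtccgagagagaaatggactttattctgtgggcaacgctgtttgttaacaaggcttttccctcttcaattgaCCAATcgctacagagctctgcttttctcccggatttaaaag

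The stretch before Rrm1 held 2 CCAAT boxes and 1 E2F-like match, and those before Rrm2, Gart and Enpp3 each held 1 CCAAT box. Atic had an E-box next to its start. Ppat and Paics, neighbours on chromosome 5, are transcribed in opposite directions, and their annotated starts lie 276 bases apart with the 5′ ends overlapping, so reads that fall in the overlap are uncertain. Over the 250 bases before each start, 39 of the 43 genes had a window, and Pfas, Dhodh, Rrm2b and Xdh had none. An E-box stood before 5 of 25 synthesis genes (Paics, Atic, Impdh2, Tyms and Dtymk; 20%) and 1 of 14 disposal genes (Slc29a1), against 6.86% of all 27025 genes with a window and 9.92% of the 9733 such genes that were tested. E2F-like letters were found before 5 of 25 synthesis genes (Ppat, Adss, Rrm1, Dtymk and Mthfd1; 20%) and 1 of 14 disposal genes, again Slc29a1, against 6.45% of all and 11.6% of tested genes. The CCAAT box was as common as elsewhere (40% of synthesis genes, 42.9% of disposal genes and 37.5% of all), and the HNF4-like letters stood before Slc29a1 alone. Slc29a1 has 8 annotated starts and so more sequence to match than other members. These matches describe letters only, and Adss, which carries E2F-like letters, was not called.

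Most genes of synthesis and dNTP supply were higher in CD24Mid, and all 8 breakdown genes were higher in CD24Neg. Of the 28 synthesis genes, 25 were called higher in CD24Mid, 0 were called higher in CD24Neg and 3 (Prps1, Adss and Rrm2b) were not called, by edgeR's quasi-likelihood test with Benjamini-Hochberg adjustment over all 12840 genes tested and a threshold of 0.05. Of the 15 disposal genes, 11 were called higher in CD24Neg, 3 (Hprt, Slc29a1 and Slc29a3) higher in CD24Mid and 1 (Adk) was not called. The background is wide: 69.8% of all tested genes were called, 35.5% higher in CD24Mid and 34.3% higher in CD24Neg. At least 4-fold and called, 21 of 28 synthesis genes were higher in CD24Mid, against 8.78% of tested genes, and 9 of 15 disposal genes were higher in CD24Neg, against 8%. The 4-fold counts depended on the scaling and on the use of shared reads. The median log2 fold change (CD24Mid over CD24Neg) was 2.39 for synthesis genes and -2.35 for disposal genes, beside 0.02 for all genes tested. In 39 of 43 genes the 4 libraries of each group did not overlap, which held for 64.4% of tested genes. As the genes were chosen with earlier results known, these shares are a description and not a test.

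**Figure D1:**
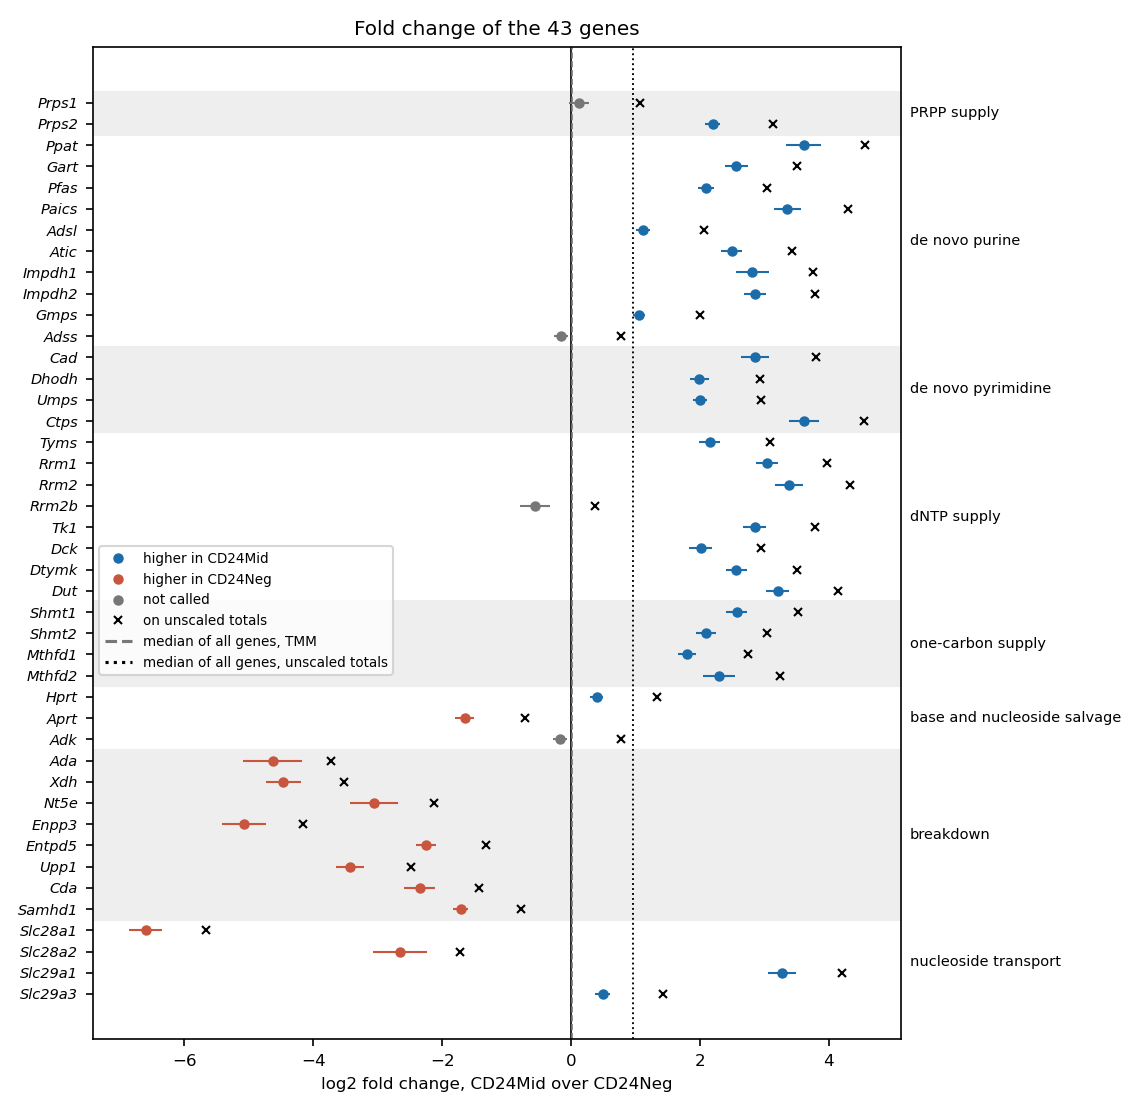
The log2 fold change of each of the 43 genes, CD24Mid over CD24Neg, on the horizontal axis, with genes in rows by role; points are the edgeR estimates, bars their standard errors, and crosses the values on unscaled library totals, where the median of all genes (dotted line) moves up by 0.94. Synthesis genes lie well to the right apart from Prps1, Adss and Rrm2b, and the 8 breakdown genes all lie to the left, down to -5.08 for Enpp3.

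Summed over each class, the reads of the 2 classes differed in opposite directions. The 28 synthesis genes together took 1868, 2211, 1916 and 1904 CPM in CD24Mid replicates 1, 3, 5 and 7, and 465, 526, 441 and 526 CPM in CD24Neg replicates 2, 4, 6 and 8. The 15 disposal genes took 593, 521, 477 and 490 CPM in CD24Mid and 2672, 3578, 3596 and 2898 CPM in CD24Neg, in the same order, which is kept below. For these 43 genes, each CD24Mid library thus held 3.15 to 4.25 synthesis reads for each disposal read, and each CD24Neg library 0.123 to 0.181. The 25 other synthesis and dNTP genes described below summed the opposite way (1013 to 1224 CPM in CD24Mid, 1563 to 1841 CPM in CD24Neg). Xdh alone made up 38.0% to 47.6% of the disposal reads in CD24Neg and 7.50% to 15.9% in CD24Mid. These are bulk libraries, so fewer cells of a type and less RNA per cell cannot be told apart. The 12 markers of dividing cells were all higher in CD24Mid, with a median log2 fold change of 3.05 and a sum of 1777 to 2450 CPM against 202 to 426 CPM, and the 10 enterocyte markers summed to 31428 to 51997 CPM in CD24Neg against 1503 to 2593 CPM. Their part in the difference of the nucleotide genes was not tested.

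**Figure D2:**
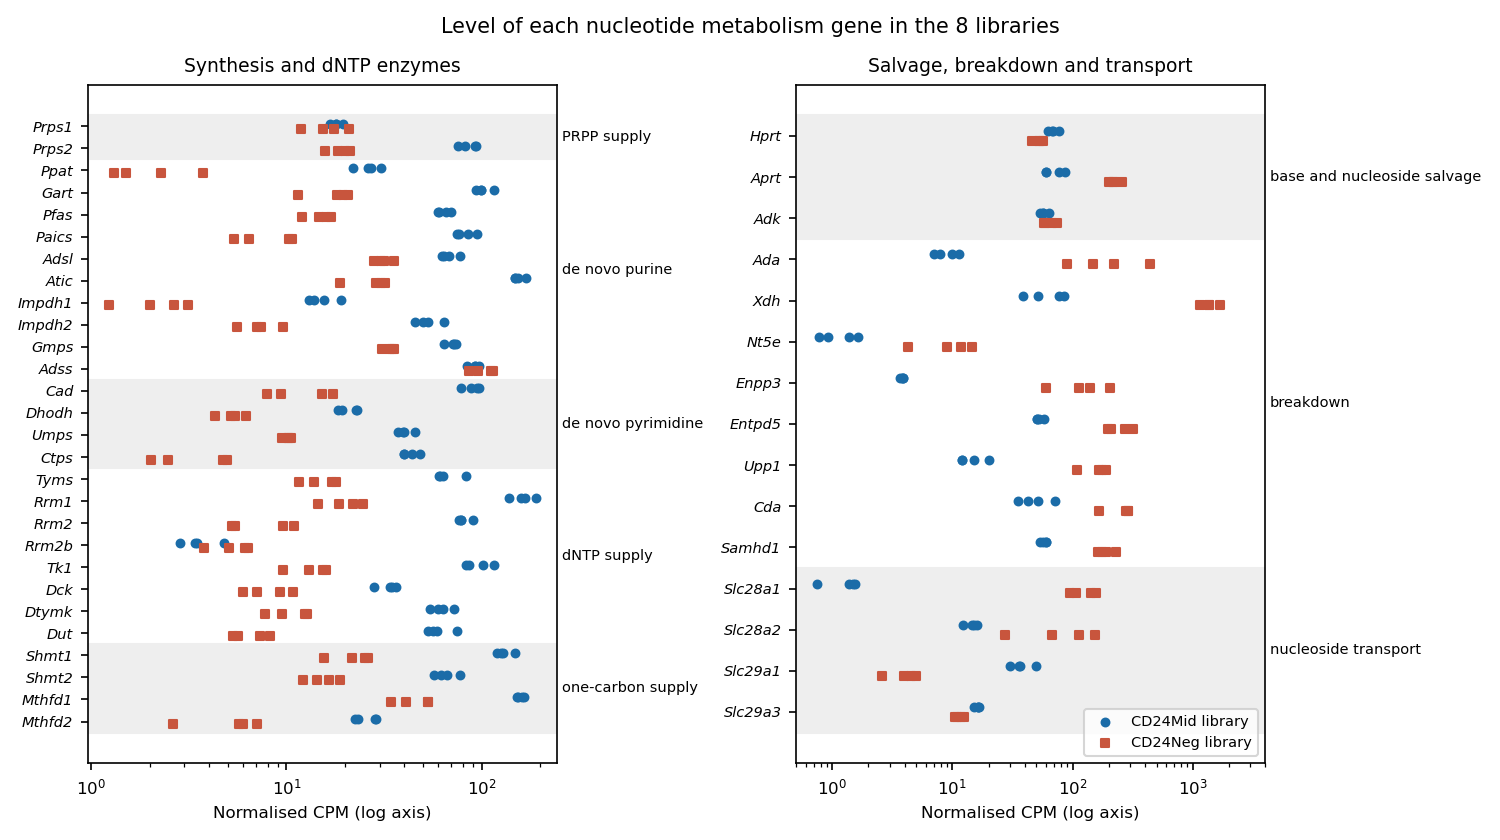
Normalised CPM (log axis) of each gene in each of the 8 libraries; circles are CD24Mid and squares CD24Neg libraries, with the role of each gene at the right. The groups overlap for Prps1, Adss, Rrm2b and Adk and are apart for the other 39 genes.

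PRPP synthetase, which makes the activated ribose shared by both de novo routes and by salvage, is encoded by Prps1 and Prps2 in these cells, and only Prps2 was called. Prps2 measured 76.1, 93.7, 92.2 and 82.4 CPM in CD24Mid and 15.8, 19.9, 18.3 and 21.1 CPM in CD24Neg. Its lowest CD24Mid library was more than 3 times its highest CD24Neg library, and the log2 fold change was 2.20 ± 0.12 (SE; edgeR adjusted p = 1.72e-07, n = 4 each). Prps1 measured 17.9, 17.9, 19.6 and 16.8 CPM in CD24Mid and 15.5, 17.5, 20.9 and 11.9 CPM in CD24Neg. Its groups overlapped, with a log2 fold change of 0.13 ± 0.16 (edgeR adjusted p = 0.496). On unscaled totals Prps1 was called higher in CD24Mid (log2 1.06, edgeR adjusted p = 0.00017), where the median of all genes also moved up by 0.94, and likewise on these totals without mitochondrially encoded genes (0.65, edgeR adjusted p = 0.00208).

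The de novo purine route was higher in CD24Mid from its first step on, and 9 of its 10 genes were called. Ppat, the amidotransferase that commits PRPP to the route, measured 21.8, 27.0, 30.4 and 26.3 CPM in CD24Mid and 2.28, 1.5, 1.31 and 3.75 CPM in CD24Neg. All CD24Neg libraries were far below the lowest CD24Mid library, and at 12.2-fold (log2 3.61 ± 0.27, edgeR adjusted p = 8.25e-07) this was the largest difference of the route. Paics, which carries out a carboxylation and a ligation in the middle of the route and lies next to Ppat, came next at 10.2-fold (82.8 ± 9.02 against 8.19 ± 2.66 CPM, SD). Gart, which holds 3 activities of the route in 1 protein, was 5.92-fold higher, Atic, which closes the ring to give IMP, 5.62-fold, and Pfas, the amidotransferase between the Gart steps, 4.28-fold. Adsl, a lyase that acts both on the way to IMP and on the way from IMP to AMP, differed by 2.17-fold (68.1 ± 6.74 against 31.4 ± 3.10 CPM).

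After IMP the route forks. Toward GMP, the IMP dehydrogenases Impdh1 and Impdh2 were 7.02-fold and 7.23-fold higher in CD24Mid, and Gmps, which aminates XMP, was 2.09-fold higher. Toward AMP, Adss, the adenylosuccinate synthetase, measured 84.3, 96.6, 92.8 and 92.2 CPM in CD24Mid and 86.0, 112, 114 and 96.3 CPM in CD24Neg. The groups of Adss overlapped, with a log2 fold change of -0.16 ± 0.11 (edgeR adjusted p = 0.227), and its sign turned under other scalings (0.068 when scaled by upper quartiles and 0.78 on unscaled totals). On unscaled totals, where the median of all genes also moved up by 0.94, Adss was called higher in CD24Mid (edgeR adjusted p = 0.000189). Per kilobase of effective length, Adss had the highest level in CD24Neg of the 10 de novo purine genes (46.2 ± 5.98 CPM per kb), while Ppat was the lowest of all 43 genes there (0.70 ± 0.35 CPM per kb). Whether the fold changes of the 2 branches differed was not tested. Counts of Impdh2 are uncertain, since reads shared with other genes brought its estimated count to 4.56 times its unique count.

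All 4 genes of the pyrimidine route were called higher in CD24Mid. Ctps, the CTP synthetase that aminates UTP, measured 40.2, 48.3, 43.8 and 40 CPM in CD24Mid and 2.03, 4.75, 2.47 and 4.97 CPM in CD24Neg. The groups stood 12.2-fold apart (log2 3.61 ± 0.24, edgeR adjusted p = 3.93e-07), and the CD24Neg libraries fell into a lower pair (replicates 2 and 6) and a higher pair (4 and 8). Ctps2, its paralog and not one of the 43 genes, measured 27.2, 29.9, 24.3 and 25.7 CPM in CD24Mid and 15.5, 10.3, 9.66 and 10.7 CPM in CD24Neg. Its groups were apart as well, by 2.34-fold (edgeR adjusted p = 3.99e-05). Cad, the protein with the first 3 activities of the route, was 7.22-fold higher, Dhodh, the mitochondrial dihydroorotate dehydrogenase, 3.97-fold, and Umps, which makes UMP, 4.00-fold.

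Genes of dNTP supply were higher in CD24Mid in 7 of 8 cases. Rrm2, the small subunit of ribonucleotide reductase that is tied to S phase, measured 76.7, 89.9, 78.0 and 78.6 CPM in CD24Mid and 5.45, 9.61, 5.23 and 10.9 CPM in CD24Neg. The groups were 10.4-fold apart (log2 3.38 ± 0.22, edgeR adjusted p = 3.57e-07), with CD24Mid replicate 3 above the other 3 CD24Mid libraries. Rrm1, the large subunit, was 8.20-fold higher. Rrm2b, the alternative small subunit that serves cells outside S phase and after DNA damage, measured 3.49, 2.84, 4.81 and 3.38 CPM in CD24Mid and 3.80, 6.13, 6.32 and 5.08 CPM in CD24Neg. Its groups overlapped through CD24Mid replicate 5 and CD24Neg replicate 2, and its log2 fold change of -0.56 ± 0.23 missed the threshold (edgeR adjusted p = 0.0515). Without CD24Neg replicate 2 Rrm2b was called higher in CD24Neg (log2 -0.65, edgeR adjusted p = 0.0333), likewise without CD24Mid replicate 5 (-0.72, 0.0248) and on estimated counts (-0.51, 0.0459), while on unscaled totals its sign turned (0.38).

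Tk1, the thymidine kinase of the cytosol, measured 102, 116, 83.5 and 85.7 CPM in CD24Mid and 13.0, 16, 9.59 and 15.5 CPM in CD24Neg, a 7.21-fold difference with the groups well apart. Tk2, the mitochondrial thymidine kinase and not one of the 43 genes, measured 5.33, 4.74, 3.76 and 3.58 CPM in CD24Mid and 7.6, 3.24, 3.20 and 3.53 CPM in CD24Neg. Its groups overlapped (log2 fold change 0.00 ± 0.30, edgeR adjusted p = 0.995), and CD24Neg replicate 2 was above all other libraries. Dut, which removes dUTP, was 9.21-fold higher in CD24Mid, Dtymk, the thymidylate kinase, 5.92-fold, Tyms, the thymidylate synthase, 4.45-fold, and Dck, the deoxycytidine kinase, 4.03-fold.

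The 4 genes of one-carbon supply, which load folate with the carbons used by Gart, Atic and Tyms, were all called higher in CD24Mid. Shmt1, the cytosolic serine hydroxymethyltransferase, measured 126, 149, 129 and 120.2 CPM in CD24Mid and 26.1, 25.1, 15.5 and 21.7 CPM in CD24Neg. Shmt2, its mitochondrial counterpart, measured 66.6, 77.6, 56.8 and 62.2 CPM in CD24Mid and 14.3, 18.7, 12.2 and 16.6 CPM in CD24Neg. Both genes had groups that did not overlap, at 5.95-fold for Shmt1 (log2 2.57 ± 0.16, edgeR adjusted p = 3.15e-07) and 4.28-fold for Shmt2. The folate enzymes Mthfd1 (cytosolic) and Mthfd2 (mitochondrial) were 3.48-fold and 4.91-fold higher.

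Of the 3 genes classed as salvage, 1 was called higher in CD24Neg, 1 higher in CD24Mid and 1 was not called. Tk1 and Dck, kinases that act on ready-made nucleosides, were counted under dNTP supply and were both called higher in CD24Mid. Aprt, which recovers adenine, measured 86.3, 77.4, 60.0 and 60.7 CPM in CD24Mid and 257, 216, 219.8 and 201 CPM in CD24Neg. Every CD24Neg library lay above every CD24Mid library, by 3.14-fold between groups (log2 -1.65 ± 0.14, edgeR adjusted p = 2.34e-06). Hprt, which recovers hypoxanthine and guanine, measured 68.2, 77.1, 62.6 and 67.1 CPM in CD24Mid and 57.1, 52.3, 53.3 and 45.9 CPM in CD24Neg. Here CD24Mid was the higher group by 1.32-fold (log2 0.40 ± 0.11, edgeR adjusted p = 0.00582), without overlap. Adk, the adenosine kinase, measured 63.3, 56.5, 57.2 and 53.8 CPM in CD24Mid and 74.9, 58.0, 59.0 and 68.1 CPM in CD24Neg. Its groups overlapped (log2 -0.17 ± 0.11, edgeR adjusted p = 0.188), and its sign turned under upper-quartile scaling (0.050) and on unscaled totals (0.77). On unscaled totals Adk was called higher in CD24Mid (edgeR adjusted p = 2.26e-05).

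All 8 breakdown genes were called higher in CD24Neg, by 3.28-fold (Samhd1) to 33.9-fold (Enpp3). Enpp3, a surface phosphodiesterase that splits nucleotides such as ATP outside the cell, measured 3.88, 3.91, 3.85 and 3.66 CPM in CD24Mid and 60.4, 206, 113 and 139 CPM in CD24Neg. The CD24Mid libraries were nearly alike and the CD24Neg libraries spread widely, with a log2 fold change of -5.08 ± 0.34 (edgeR adjusted p = 4.50e-07). Ada, which deaminates adenosine and deoxyadenosine, was 24.8-fold higher in CD24Neg (225 ± 154 against 9.10 ± 1.98 CPM, SD), and Nt5e, the surface nucleotidase CD73 that makes adenosine from AMP, 8.32-fold (9.90 ± 4.37 against 1.18 ± 0.39 CPM, the latter on 109 reads in all). Xdh, which takes hypoxanthine and xanthine to uric acid, was 22.1-fold higher and had the most reads of the 43 genes in CD24Neg (1393 ± 221 against 63.1 ± 21.5 CPM). Upp1, the uridine phosphorylase, was 10.8-fold higher (160.1 ± 34.8 against 14.9 ± 3.88 CPM), and Cda, the cytidine deaminase, 5.10-fold (256 ± 60.7 against 50.3 ± 15.6 CPM). Entpd5, a diphosphatase of the endoplasmic reticulum, was 4.76-fold higher, and Samhd1, which degrades dNTPs, 3.28-fold (189 ± 28.5 against 57.5 ± 3.41 CPM).

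The nucleoside carriers split by family. Slc28a1 and Slc28a2, the sodium-driven concentrative carriers known as Cnt1 and Cnt2, were higher in CD24Neg, while Slc29a1 and Slc29a3, equilibrative carriers of the plasma membrane (Ent1) and of lysosomes and mitochondria (Ent3), were higher in CD24Mid. Slc28a1 measured 1.55, 1.49, 0.75 and 1.37 CPM in CD24Mid and 107, 156, 142 and 94.7 CPM in CD24Neg. With 116 reads in all CD24Mid libraries against 5013 in CD24Neg, the groups were 97.1-fold apart (log2 -6.60 ± 0.25, edgeR adjusted p = 9.35e-08), more than for any other of the 43 genes. Slc28a2 measured 16, 12.2, 14.7 and 15.2 CPM in CD24Mid and 27.2, 155, 113 and 68.1 CPM in CD24Neg. Its groups did not overlap, but CD24Neg replicate 2 was close to the CD24Mid libraries, and the 6.27-fold difference had a wide error (log2 -2.65 ± 0.42, edgeR adjusted p = 0.000204).

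Slc29a1 measured 35.7, 49.2, 36.3 and 30.4 CPM in CD24Mid and 4.94, 4.51, 2.61 and 3.97 CPM in CD24Neg. Its groups were 9.65-fold apart in favour of CD24Mid (log2 3.27 ± 0.22, edgeR adjusted p = 4.23e-07), and it was the 1 disposal gene called at least 4-fold higher there. Slc29a3 measured 16.5, 16.7, 15 and 16.3 CPM in CD24Mid and 11.8, 12.6, 11.0 and 10.6 CPM in CD24Neg. That 1.40-fold difference was small but clear of the spread (log2 0.49 ± 0.11, edgeR adjusted p = 0.00247).

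Ratios between genes of the same reaction or family were then taken within each library, where library scaling cancels. They rest on the same counts as the fold changes above and are not independent of them. Unique reads were divided by effective length, and 10 pairs were compared between groups by an exact two-sided permutation test, with Benjamini-Hochberg adjustment over the 10 pairs. With 4 against 4 libraries this test cannot go below p = 0.0286, and 7 pairs reached that value (exact permutation, adjusted p = 0.0408), each with groups that did not overlap. Prps1 made up 26% to 30% of the PRPP synthetase pair in CD24Mid and 49.8% to 69.1% in CD24Neg. Rrm2 made up 96.2% to 98.0% of Rrm2 and Rrm2b in CD24Mid and 60.0% to 79.3% in CD24Neg, and Tk1 97.4% to 97.9% of the thymidine kinases against 78.8% to 89.7%. Ctps was near parity with Ctps2 in CD24Mid (41.5% to 46.3%) and the minor form in CD24Neg (5.42% to 18.2%). From CD24Mid to CD24Neg the log2 ratio fell by 1.94 for Prps2 over Prps1, 3.94 for Rrm2 over Rrm2b, 2.78 for Tk1 over Tk2 and 2.54 for Ctps over Ctps2, although Ctps2 was itself called higher in CD24Mid.

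For carriers, Slc28a1 was 5.05% to 10.6% of Slc28a1 and Slc28a2 in CD24Mid and 49.3% to 79.8% in CD24Neg, a difference in log2 ratio of -4.22 (CD24Mid minus CD24Neg). The estimate with shared reads was 1.43 times the unique count for Slc28a2, so these shares on unique reads are uncertain. Slc29a1 went from 85.9% to 90.0% of Slc29a1 and Slc29a3 in CD24Mid to 42.4% to 61.8% in CD24Neg, a log2 difference of 2.74. Shmt1 over Shmt2 differed least of the 7, with shares of 63.0% to 67.3% and 51.8% to 61.5% (log2 difference 0.50), and on estimates that include shared reads its groups were not told apart (0.36, exact permutation p = 0.114). For Impdh1 and Impdh2 (log2 difference -0.06, exact permutation p = 0.857) and Mthfd1 and Mthfd2 (-0.51, p = 0.0857) the groups overlapped. The ratio of Impdh1 to Impdh2 rests on unique reads, which are uncertain for Impdh2, as stated above. Adss and its muscle paralog Adssl1 overlapped as well (-1.40, exact permutation p = 0.371), on 52 Adssl1 reads in CD24Mid and 13 in CD24Neg, with 0 in 1 library.

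**Figure D3:**
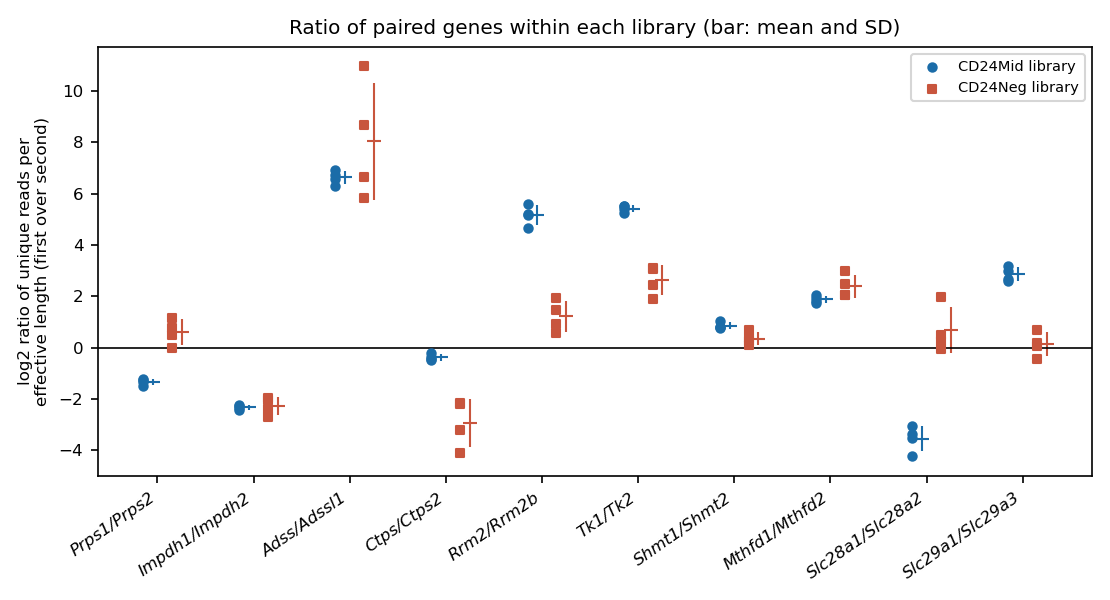
The log2 ratio of unique reads per effective length, first gene over second, for 10 gene pairs in each library; circles are CD24Mid and squares CD24Neg libraries, and the bars beside them give the mean and SD of 4 libraries. The groups are apart for 7 pairs, most of all Slc28a1/Slc28a2 and Rrm2/Rrm2b, and overlap for Impdh1/Impdh2, Adss/Adssl1 and Mthfd1/Mthfd2.

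Levels per kilobase of effective length put the members in a different order in each group. The highest in CD24Mid were Aprt (116 ± 21.2 CPM per kb, SD), Tk1 (95.7 ± 15.2), Dtymk (87.1 ± 10.3), Cda (84.9 ± 26.3) and Dut (70.8 ± 11.5), neighbours that lay within about 1 SD of each other from Tk1 to Cda. In CD24Neg the highest were Cda (433 ± 103 CPM per kb), Xdh (365 ± 57.9), Aprt (365 ± 38.8), Upp1 (178 ± 38.8) and Ada (171 ± 117), of which Cda, Xdh and Aprt did not differ beyond their spread, nor did Upp1 and Ada. Cda and Aprt thus stood in the leading 5 of both groups. At the other end, Nt5e (0.40 ± 0.13 CPM per kb) and Slc28a1 (0.56 ± 0.16) were the lowest in CD24Mid, and Slc28a1 ranked 9 of 43 in CD24Neg.

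Among the CD24Neg libraries, 4 disposal genes varied far more than the others, and this set was picked after its values were seen. Ada measured 90.1, 442, 219.9 and 149 CPM in CD24Neg replicates 2, 4, 6 and 8, and Nt5e 4.31, 14.6, 9.01 and 11.7 CPM. Ada, Nt5e, Enpp3 and Slc28a2 were each lowest in replicate 2 and highest in replicate 4. Xdh, by contrast, stayed between 1149 and 1685 CPM. The T and NK marker list summed to 632, 38.2, 104 and 485 CPM in the same libraries, highest where these 4 genes were lowest. The stem cell markers summed to 186, 415, 195 and 388 CPM, lowest and highest in the same replicates as these 4 genes. The goblet cell markers summed to 27203, 34480, 12226 and 14929 CPM and the enterocyte markers to 31618, 43244, 51997 and 31428 CPM. The 4 proximal gut markers summed to 411, 446, 374 and 293 CPM, and the 4 distal ones to 1575, 1130.4, 683 and 1894 CPM. The part of these lists in the spread was not tested. Without replicate 2 the log2 fold changes were -4.87 (Ada), -3.26 (Nt5e), -5.28 (Enpp3) and -2.91 (Slc28a2), and without replicate 4 they were -4.04, -2.76, -4.72 and -2.22, all still called by edgeR. Leaving out replicate 4 brought the fold of Ada down by 1.51 times, the largest such move for any of the 43 genes.

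**Figure D4:**
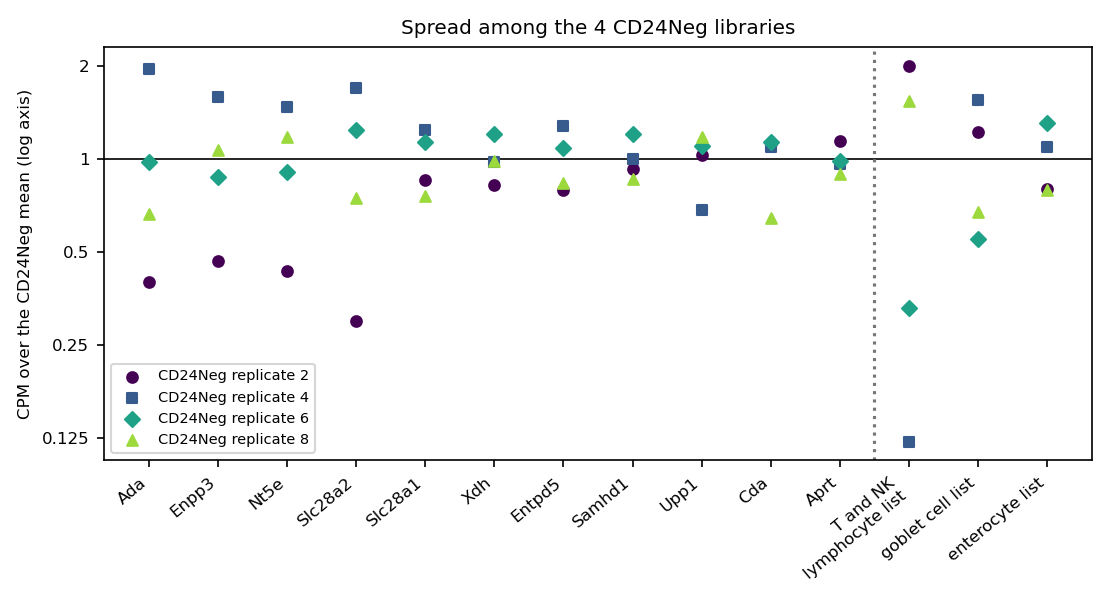
CPM in each of the 4 CD24Neg libraries divided by their mean (log axis), for the 11 disposal genes called higher in CD24Neg and, right of the dotted line, for the summed T and NK, goblet and enterocyte markers. Replicate 2 lies lowest for Ada, Enpp3, Nt5e and Slc28a2 and highest for the T and NK list, and replicate 4 the reverse.

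Among the CD24Mid libraries, replicate 3 was the highest library for 21 of 28 synthesis genes, while the stem cell markers summed to 3162, 4153, 3716 and 4025 CPM and the dividing cell markers to 1777, 2216, 2346 and 2450 CPM in replicates 1, 3, 5 and 7. In CD24Neg replicate 8 was the highest for 14 and replicate 6 the lowest for 16 of the 28 genes. The dividing cell markers summed to 202, 349.8, 262 and 426 CPM in CD24Neg replicates 2, 4, 6 and 8, highest in replicate 8. Whether these levels are linked was not tested.

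The other genes of the pathway were more mixed. Of 25 other genes of synthesis and dNTP supply, 22 were tested: 10 were higher in CD24Mid, 6 higher in CD24Neg and 6 not called, with a median log2 fold change of 0.46, and these shares are near the background. Their summed CPM, 1563 to 1841 in CD24Neg against 1013 to 1224 in CD24Mid, ran opposite to that of the 28 synthesis genes. Dctd, the dCMP deaminase, was 11.4-fold higher in CD24Mid and Dnph1, which clears modified deoxynucleotides, 8.12-fold. In the opposite direction, Cmpk2, a mitochondrial nucleotide kinase known as an interferon-induced gene, was 5.35-fold higher in CD24Neg and Ak3, a mitochondrial adenylate kinase family member that uses GTP, 2.12-fold. Of 33 other genes of salvage, breakdown and transport, 31 matched and 27 were tested: 5 were higher in CD24Mid, 12 higher in CD24Neg and 10 not called, with a median of -0.68. Of all tested genes, 35.5% were called higher in CD24Mid and 34.3% higher in CD24Neg. The 31 matched genes summed to 1800 to 2872 CPM in CD24Neg and 666 to 750 CPM in CD24Mid. Gda, the guanine deaminase, stood out at 50.7-fold higher in CD24Neg (909 ± 323 against 17.9 ± 5.67 CPM, SD), and Tymp, the thymidine phosphorylase, was 10.8-fold higher. Uck2, the uridine-cytidine kinase, and Slc29a2, a further equilibrative carrier, were higher in CD24Mid by 4.20-fold and 7.22-fold. With Slc29a2, 3 equilibrative carriers were called higher in CD24Mid, while Slc29a4, named after its values were seen, was not called (log2 -0.87 ± 0.39, edgeR adjusted p = 0.0699).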

How the data were processed

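RNA from 4 CD24Mid and 4 CD24Neg sorts was sequenced after TruSeq library preparation, per the labels' protocols. The submitters' processing notes name Bowtie 0.12.8 and the build NCBIM37. Tables and columns are named as MMSEQ names them, per the file headers, and its version, annotation and strand setting were not stated. Without strand, a gene and an antisense partner cannot be told apart. The deposited tables hold whole-number counts of fragments unique to 1 gene, which were the main measurement and lower genes with near-identical copies. They also hold the authors' expression estimate with shared reads, read here as a natural log because that reading gives back the unique counts, and the effective length. Estimated counts (the estimate times effective length and mapped fragments, rounded) were an alternative.

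Of 37620 gene IDs, 32897 (87.4%, with 99.3% of counts) matched a RefSeq name. The test was that of edgeR 4.0.16 under R 4.3.3 (TMM, filterByExpr, robust quasi-likelihood F test, group alone, Benjamini-Hochberg adjustment over 12840 genes, threshold 0.05). Its P-values set the difference between the groups against the spread between these libraries. The CD24Mid libraries had TMM factors between 1.34 and 1.42, the CD24Neg libraries between 0.697 and 0.757. Pair ratios (0.5 added to each count) used exact permutation tests in SciPy 1.17.1. Alternatives were upper-quartile scaling, unscaled totals with and without mitochondrially encoded genes, no filter, DESeq2 1.42.0, estimated counts, an added count of 5 for pairs, and leaving out each library. The fit was tested on simulated data with known fold changes in a small set of genes and no composition shift. That test therefore does not cover the difference in composition between these groups. No library repeated another of its group (smallest chi-square for each degree of freedom 10.8). Intervals on low counts cover counting error only.

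The 43 genes, the gene and marker lists and the pairs were chosen with earlier results of these data known. Values in each library are given for the member of each role with the largest called change in each direction, members called against their class, members not called, and both genes of pairs whose groups did not overlap; of other pathway genes, the 2 with the largest called change in each direction per list are named. Start-site sequences are RefSeq's on GRCm38.p6, read 250 bases before each start; protein sequences were not used here.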

Additional observations from a re-analysis of the deposited data

Results flagged for a closer look

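Of the 43 genes and 10 pair ratios in 2 groups of 4 libraries, 4 values lay far from the other 3 libraries of their group by Dixon's criterion, which chance meets in about 1 in 20 groups. Tyms measured 83.6 CPM in CD24Mid replicate 3 against 60.6 to 63.3 CPM in the other CD24Mid libraries, and Rrm2 measured 89.9 CPM in the same library against 76.7 to 78.6 CPM. Cda measured 165 CPM in CD24Neg replicate 8 against 281 to 290.5 CPM in the other CD24Neg libraries. The log2 ratio of Shmt1 to Shmt2 was 1.04 in CD24Mid replicate 5 against 0.77 to 0.79 in the other CD24Mid libraries.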

How the results depend on the processing

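Of 602 refits of single genes, 590 kept their direction and side of the threshold, and the 12 that did not concerned Prps1, Adss, Rrm2b and Adk. The counts of 25 synthesis genes higher in CD24Mid and 11 disposal genes higher in CD24Neg held with upper-quartile scaling, without a filter, with DESeq2, with estimated counts and without each library in turn. On unscaled totals, with or without mitochondrially encoded genes, they were 27 and 11, and disposal genes higher in CD24Mid went from 3 to 4. Synthesis genes called higher in CD24Neg went from 0 to 1 (Rrm2b) with estimated counts, and ranged from 0 to 1 with single libraries left out. The median of all genes moved up by 0.22 with upper-quartile scaling, 0.94 on unscaled totals and 0.51 on these without mitochondrially encoded genes. Among all genes, 8959 were then higher in CD24Mid and 1659 higher in CD24Neg on unscaled totals, and 7042 and 2610 without mitochondrially encoded genes, against 4557 and 4410; with upper-quartile scaling the counts were 5594 and 3510. Other pathway genes higher in CD24Mid went from 15 to 28 and 24 on these totals, and those higher in CD24Neg from 18 to 10 on unscaled totals. The cause of these moves was not tested. The sign turned for Adss with upper-quartile scaling (0.068), on unscaled totals (0.78) and on these without mitochondrially encoded genes (0.36), for Adk likewise (0.050, 0.77 and 0.34) and for Rrm2b on unscaled totals (0.38). Prps1 (1.06 and 0.65), Adss and Adk were called higher in CD24Mid on both unscaled totals. The log2 ratio difference of Shmt1/Shmt2 fell to 0.36 with shared reads, and the cause was not tested. With single libraries left out, that of Impdh1/Impdh2 ranged from -0.20 to 0.047, turning sign without CD24Neg replicate 2 (0.047) or 4 (0.029), and that of Mthfd1/Mthfd2 from -0.63 to -0.30. Adss/Adssl1 could not be fitted with shared reads. No paired analysis was possible because the replicate numbers of the 2 groups share none and no label ties consecutive numbers together. The summed stem cell markers, and likewise the T and NK markers, stood in the same order over CD24Mid replicates 1, 3, 5 and 7 as over CD24Neg replicates 2, 4, 6 and 8. The other marker sums did not keep the same order in both groups, among them those of dividing cells, enterocytes and goblet cells.

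Depth limits Ppat, Impdh1 and Ctps in CD24Neg, which rest on 83, 83 and 136 reads in all, and Nt5e and Slc28a1 in CD24Mid, on 109 and 116. With 4 libraries a group and 1 left out, the exact pair test cannot go below p = 0.0571.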
